A study of Mus musculus with 36 samples.

Results

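The genes described here encode the NF-kappaB subunits and the proteins that hold them back. They are the subunit genes Rela, Rel, Relb, Nfkb1 and Nfkb2, the cytoplasmic inhibitors Nfkbia and Nfkbie, the nuclear family members Nfkbiz and Bcl3, and Tnfaip3, which acts further upstream. Chromatin accessibility was measured by ATAC-seq, a method in which a transposase cuts open DNA and tags it for sequencing. Every interval of the deposited count table that overlapped one of the 10 gene bodies or the 10 kb to either side in mm10 coordinates was taken, which gave 123 of the 119751 peaks. The rule uses gene names and positions. All 123 passed the filter on low counts, as did 119464 peaks in all.

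The cells were dendritic cells grown with GM-CSF (15 ng/mL) from the bone marrow of female C57BL/6J mice aged 6 to 8 weeks, and every stimulation lasted 6 h. Of the 18 groups, Ctrl received no ligand, and 6 groups received a single ligand of a pattern recognition receptor, namely LPS (L), PAM (P), SeV (S), HMW (H), depleted zymosan (Z) or 3',3'-cGAMP (cG). The other groups were the 8 pairs PL, PH, LH, PS, PcG, ScG, ZS and ZcG and the 3 triplets PLH, PScG and ZScG, each named by the letters of its ligands. Each group had 2 libraries, and the labels do not say whether these came from separate mice or cultures, so p-values measure the spread between these libraries, which may be technical. GM-CSF cultures of bone marrow can hold other myeloid cells beside dendritic cells.

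NF-kappaB is a family of dimeric transcription factors that inhibitor proteins of the IkappaB family keep in the cytoplasm of resting cells. Signals from pattern recognition receptors activate the IkappaB kinase (IKK) complex, the inhibitor is degraded, and dimers such as p50 with RelA or c-Rel enter the nucleus and bind kappaB sites. In dendritic cells the family drives cytokine production and maturation. Several of its own inhibitors are known target genes, which gives the pathway its negative feedback.

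Libraries held 19097027 to 39977088 counts, of which 8181254 to 21985891 lay outside the mitochondrial genome and 9620 to 37073 in the 123 peaks. The mitochondrial share averaged 58.28% to 62.95% in Ctrl, Z, ZcG, ScG and ZScG and 44.38% to 54.54% in the other 13 groups. This division is one of group means, since ZS replicate 1 (58.11%) lay above ScG replicate 1 (57.25%) and ZScG replicate 1 (57.88%). Contrasts of those 13 groups with Ctrl cross this division, and its part in them cannot be told apart from the stimulation. Contrasts of Z, ZcG, ScG and ZScG with Ctrl, and contrasts among P, L, H, S and cG, do not cross it. Of 10 dendritic and myeloid marker genes, 9 had a peak at the start, among them Spi1, Itgax and Irf8, and Zbtb46 had none. Their summed level was 98.7 to 103.8 CPM, the counts scaled to the library's effective size, in Ctrl and 83.6 to 121.0 in stimulated libraries. No start peak was listed for 5 T cell, 4 B cell and 3 erythroid markers. Of 3 neutrophil markers only S100a8 had one, at 17.2 and 20.5 CPM in Ctrl and 6.37 to 21.7 with stimulation, and its part in the results was not tested. In such bulk libraries, fewer cells of a type and less open chromatin per cell cannot be told apart.

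The sequences just upstream of the members' starts are shown because these genes are classical targets of the factors they encode. RefSeq entries on GRCm38.p6, the assembly behind mm10, were found for 7 members with 10 annotated starts, and not for Nfkb1, Relb and Nfkbiz. Each window covered the 250 bases before a start and lay wholly inside that gene's start peak, the peak that overlaps the annotated start. The 5 windows below, before 2 subunit genes and 3 inhibitor genes, carry their kappaB consensus matches in capitals, on the strand of the gene, 5′ to 3′.
Nfkb2 first start, chr19:46304487-46304736, plus strand: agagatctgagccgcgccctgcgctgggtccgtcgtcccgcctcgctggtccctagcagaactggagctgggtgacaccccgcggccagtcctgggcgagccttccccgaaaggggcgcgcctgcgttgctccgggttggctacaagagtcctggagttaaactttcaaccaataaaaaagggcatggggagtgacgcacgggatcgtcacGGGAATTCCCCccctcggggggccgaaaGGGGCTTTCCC
Rel, chr11:23770970-23771219, minus strand: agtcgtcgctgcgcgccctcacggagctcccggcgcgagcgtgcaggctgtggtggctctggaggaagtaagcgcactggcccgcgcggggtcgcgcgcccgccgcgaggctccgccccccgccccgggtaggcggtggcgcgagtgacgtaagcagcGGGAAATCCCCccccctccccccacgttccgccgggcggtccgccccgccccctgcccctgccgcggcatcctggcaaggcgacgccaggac
Nfkbia, chr12:55492648-55492897, minus strand: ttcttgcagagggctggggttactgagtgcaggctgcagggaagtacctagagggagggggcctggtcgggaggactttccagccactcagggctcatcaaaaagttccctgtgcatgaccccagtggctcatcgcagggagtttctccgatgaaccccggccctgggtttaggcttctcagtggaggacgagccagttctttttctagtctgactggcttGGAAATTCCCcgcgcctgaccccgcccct
Nfkbie, chr17:45555450-45555699, plus strand: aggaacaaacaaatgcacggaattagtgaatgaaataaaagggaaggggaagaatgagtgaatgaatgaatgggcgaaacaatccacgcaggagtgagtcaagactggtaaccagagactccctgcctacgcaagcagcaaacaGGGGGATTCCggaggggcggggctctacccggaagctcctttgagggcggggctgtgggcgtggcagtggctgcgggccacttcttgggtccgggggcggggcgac
Tnfaip3 outer start, chr10:19015411-19015660, minus strand: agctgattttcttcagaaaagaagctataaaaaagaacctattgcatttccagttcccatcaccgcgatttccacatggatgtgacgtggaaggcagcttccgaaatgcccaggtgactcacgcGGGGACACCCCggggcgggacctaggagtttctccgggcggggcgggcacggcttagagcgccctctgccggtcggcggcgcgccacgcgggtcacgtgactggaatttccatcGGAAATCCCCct

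The kappaB consensus, searched on both strands, had a match in all 10 windows, and 23.2% of 32851 windows of the same length at all annotated starts held one. A narrower motif, GGG and TTTCC with any 2 bases between them, occurred in 5 of the 10, which were 2 of the 3 starts of Nfkb2, Rel, Nfkbia and the outer start of Tnfaip3. It occurred in 1.41% of all windows, and each member match was also a match to the consensus. TGANTCA, a looser form of the AP-1 letters TGACTCA and TGAGTCA, occurred at the other start of Nfkb2, at Nfkbie and at the outer start of Tnfaip3. It occurred in 6.75% of all windows, a share that counts any middle base. The matches at Nfkbie (TGAGTCA) and Tnfaip3 (TGACTCA) hold the AP-1 letters, and that at Nfkb2 (TGAATCA) does not. GAAA repeated after any 2 bases, the letters bound by interferon regulatory factors, occurred in 0 of 10 windows and in 2.98% of all. A match describes letters and not a bound site, and no match says only that these letters are not in the window.

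With every single ligand, more member peaks were above Ctrl than below it. P raised 37 and lowered 1 of the 123 peaks, where 20.5% of all tested peaks were called in either direction, 11.1% higher and 9.45% lower. L raised 39 and lowered 4 (background 22.3%), S raised 39 and lowered 1 (27.9%), and cG raised 34 and lowered 4 (23.3%). H raised 22 and lowered 3, where 10.7% of all peaks were called, 5.21% higher and 5.46% lower. Z raised 16 and lowered 0, where 5.91% were called, 4.16% higher and 1.75% lower, with 6 lower at an unadjusted p under 0.05 by edgeR and 0 called lower by DESeq2, which gave 34 of the 123 no adjusted p. The median log2 fold change of the members was 0.49 with P, 0.58 with L, 0.47 with H, 0.57 with S, 0.37 with cG and 0.26 with Z, against -0.04 to 0.03 over all tested peaks. A peak was called when its p-value, adjusted by the Benjamini-Hochberg method over all peaks of a contrast in edgeR's quasi-likelihood test, was under 0.05.

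Several of these counts were smaller without 1 library. The count with P was 21 without Ctrl replicate 1. That with L was 27 without Ctrl replicate 1 or L replicate 2 and 28 without Ctrl replicate 2. For H it was 14 without Ctrl replicate 1, Ctrl replicate 2 or H replicate 1 and 15 without H replicate 2, and for Z it was 10 without Z replicate 1. Scaling by total counts in place of TMM moved the median of all tested peaks to between -0.04 and 0.45 over the 17 stimulations. The members' median stayed 0.25 to 0.73 above that of all peaks, as against 0.26 to 0.73 with TMM.

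The combinations, compared with the same 2 Ctrl libraries as the single ligands, also had more member peaks called higher than lower. Pairs raised 30 (ZcG) to 47 (PL) member peaks and lowered 3 to 12, with 21.6% (ZcG, 10.2% lower) to 33.4% (PS) of all tested peaks called. PL raised 47 and lowered 3 (background 27.3%), PcG 46 and 4 (32.9%), PS 44 and 4 (33.4%) and PH 40 and 4 (26.3%). ScG raised 36 and lowered 6 (background 27.7%), ZS 35 and 12 (28.3%), LH 33 and 4 (21.8%) and ZcG 30 and 5 (21.6%). PLH raised 44 and lowered 6 (background 29.7%), PScG raised 52 and lowered 3 (37.1%), and ZScG raised 44 and lowered 4 (32.3%). Over the 17 stimulations, 75 member peaks (61%) were higher at least once, where 35% of all tested peaks were. Only 17 (13.8%) were lower at least once, where 34.1% of all were, and 32 (26%) were called in none, where 33.4% were. Member peaks were also better covered than the rest, with a median mean count of 40.5 against 28.1 over all tested peaks.

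**Figure D1:**
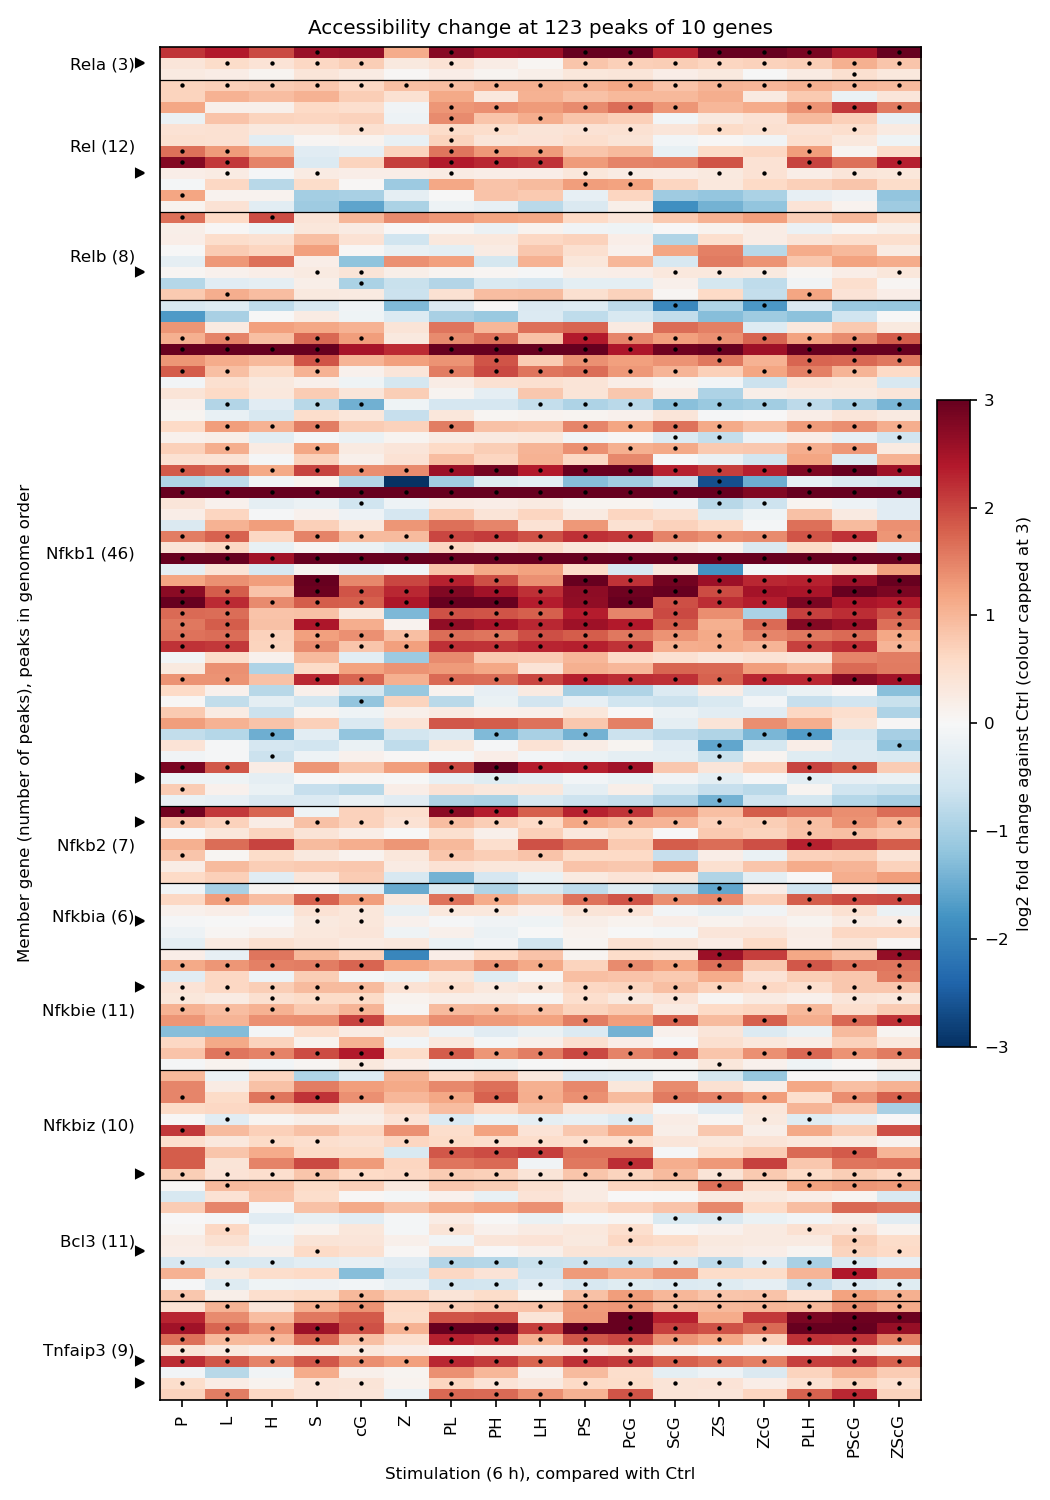
Fitted log2 fold change against Ctrl (colour, capped at 3) of the 123 member peaks (rows, by gene and in genome order) in the 17 stimulations (columns). Dots mark an adjusted p under 0.05 and triangles the 11 peaks at annotated starts or, for Nfkb1, Relb and Nfkbiz, at a gene end. Rows that are red with a dot in all columns are the 10 peaks (8.13%, against 1.03% of all tested peaks) called higher with every stimulation, 5 of them in Nfkb1, and 2 of the 10, Nfkb1 peak 24 and Tnfaip3 peak 6, kept every call without any 1 library.

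Nfkb1 encodes p105, the precursor of the p50 subunit. It had 46 of the 123 peaks, 39 of them over the gene body, and 21 were higher and 11 lower with at least 1 stimulation. The peak at the gene end with the higher coordinate (chr3:135690205-135692158), which serves as its start peak, changed little, with 43.7 and 40.3 CPM in Ctrl and 31.5 to 44.9 CPM in the 34 stimulated libraries. Its log2 fold changes ran from -0.36 to 0.05. It was called lower with PH, PLH and ZS, each lost without Ctrl replicate 1, and with total-count scaling its values with L, PLH, PS and S turned to 0.30, 0.03, 0.32 and 0.34. The strongest changes lay inside the gene.

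Nfkb1 peak 24 (chr3:135640041-135640780), chosen after its values were seen, was the clearest of these. Its 2 Ctrl libraries held 14 and 13 counts, or 1.53 and 1.25 CPM. With P it stood at 21.8 and 22.4 CPM, with S at 20.3 and 21.6 and with L at 16.4 and 15.5. With Z it stood at 11.4 and 13.4 CPM, with cG at 10.9 and 12.0 and with H at 7.18 and 8.88. All 34 stimulated libraries lay above both Ctrl libraries, the lowest of them at 7.18 CPM. The log2 fold change was 3.99 ± 0.23 (SE; edgeR, adjusted p = 9.22e-39) with P and 2.52 ± 0.26 (SE; edgeR, adjusted p = 5.66e-15) with H, the largest and smallest of the single ligands. Among pairs it was lowest with ZcG (11.7 and 10.8 CPM) and highest with PS (24.2 and 25.6 CPM), and the triplets stood at 21.6 and 21.1 (PLH), 19.4 and 22.8 (PScG) and 16.9 and 16.0 (ZScG). In ascending order of mean the groups were Ctrl, H, ZcG, ZS, cG, Z, L, ZScG, LH, S, PcG, PScG, PLH, P, PH, ScG, PL and PS, and the libraries of neighbours in this order overlapped in 10 of 17 cases. All 17 calls held when any 1 library was left out.

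Nfkb1 peak 18 (chr3:135623603-135624018) was nearly closed in Ctrl, with 1 count and 0 counts in its 2 libraries. With P the libraries held 2.14 and 2.10 CPM and with PH 2.76 and 2.81, and all 34 stimulated libraries lay above both Ctrl libraries. From the summed counts the P level was 41.3 times the Ctrl level (95% interval 7.12 to 1660.0) and the PH level 54.4 times the Ctrl level (95% interval 9.53 to 2170.0), intervals that cover counting error only. It was called in 16 of 17 stimulations, the exception being ZcG at 0.362 and 0.445 CPM, and the H, L, Z and cG calls were lost when 1 library was left out. With so few Ctrl counts its fitted fold changes carry little information on size.

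Peaks 16, 28, 31 and 32 of Nfkb1, all over the gene body and also singled out after their values were seen, were higher in all 17 stimulations. Peak 28 (chr3:135658545-135659126) stood at 1.09 and 1.16 CPM in Ctrl, 8.01 and 10.5 with P and 13.0 and 10.4 with PH, a log2 fold change of 3.36 ± 0.32 (SE; edgeR, adjusted p = 1.25e-18) for the latter. Peak 16 (chr3:135612721-135613615) stood at 0.874 and 1.93 CPM in Ctrl and 13.5 and 12.0 with PScG. Peak 32 (chr3:135672132-135672881) separated the ligands, at 18.01 and 20.7 CPM with P and 19.3 and 18.6 with L but 6.73 and 6.98 with H and 7.56 and 7.74 with cG, from 4.81 and 3.86 in Ctrl. The H calls of these 4 peaks were each lost without 1 of the Ctrl libraries, as were the Z and cG calls of peak 16 and the cG call of peak 32, while those of peak 24 were not. The Z call of peak 31 was lost without Ctrl replicate 2. Peak 32 lost 5 calls in all, the others being Z without Z replicate 2, ScG without ScG replicate 2 and ZScG without ZScG replicate 1.

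Of the 46 Nfkb1 peaks, 11 were lower at least once, where 34.1% of all tested peaks were. Peak 10 (chr3:135596578-135597445), chosen after its values were seen, stood at 9.83 and 8.39 CPM in Ctrl, 2.39 and 4.30 with cG, 3.35 and 4.26 with ScG and 3.35 and 3.72 with ZScG. It was lower in 12 of 17 stimulations, of which 6 were lost when 1 library was left out, with a log2 fold change of -1.43 ± 0.27 (SE; edgeR, adjusted p = 1.11e-05) with cG. With P it stood at 12.0 and 7.95 CPM and was not called (0.13). The body peak with the highest level among those not at the gene end, peak 13 (chr3:135606947-135608783), which also overlaps the annotated gene Gm46827, was lower with ScG, ZS and ZScG, at 19.5 and 13.9 CPM with ZS against 27.9 and 27.0 in Ctrl. ZS lowered 8 of the 46 Nfkb1 peaks, and 14% of all tested peaks were lower with ZS.

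**Figure D2:**
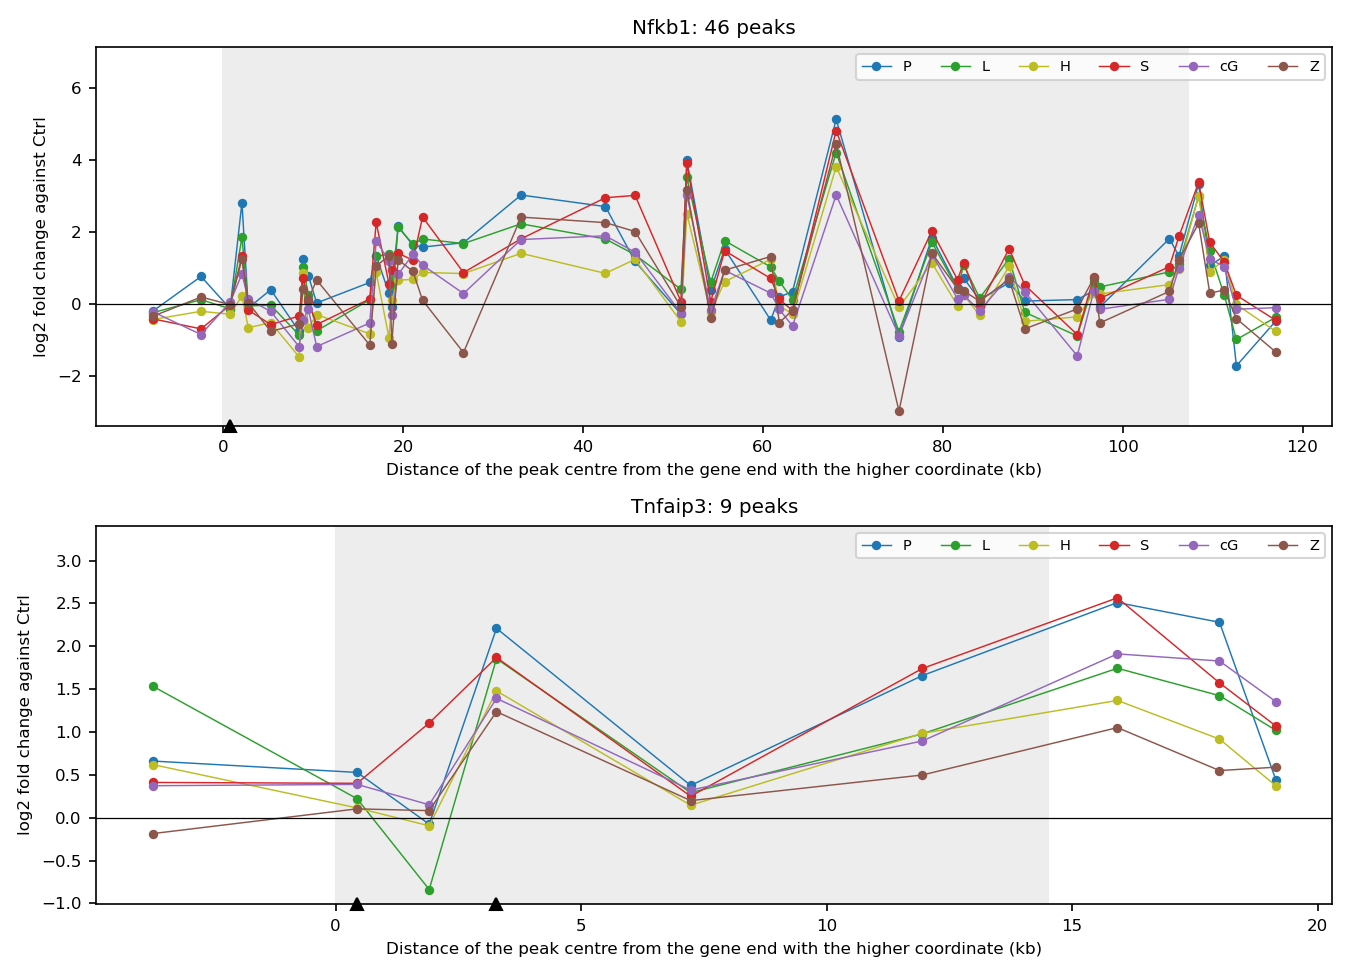
Fitted log2 fold change against Ctrl of each Nfkb1 peak (top, 46 peaks) and Tnfaip3 peak (bottom, 9 peaks) with the 6 single ligands (colours), by distance of the peak centre from the gene end with the higher coordinate. Grey shading is the gene body, triangles mark the start peaks and lines only join neighbouring peaks. The highest Nfkb1 values lie far from the triangle inside the gene, at peak 24 and at peak 18, whose fitted values rest on 1 Ctrl count, while the start peak stays near 0.

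Nfkb2 encodes p100, the precursor of p52 and the inhibitor released by the noncanonical pathway. Its start peak (chr19:46303790-46306428), which covers all 3 annotated starts shown or named above, opened with most stimulations. It stood at 39.9 and 46.6 CPM in Ctrl, 77.5 and 77.9 with P, 84.3 and 74.7 with S and 50.7 and 50.8 with H. The triplet PScG reached 105 and 116 CPM. All 34 stimulated libraries lay above both Ctrl libraries. The log2 fold change was 0.84 ± 0.10 (SE; edgeR, adjusted p = 4.22e-13) with P and 1.35 ± 0.10 (SE; edgeR, adjusted p = 4.46e-28) with PScG. With H, 0.23 ± 0.10 (SE; edgeR, adjusted p = 0.129), it was not called, which left 16 of 17 stimulations. Only the Z call (0.45) was lost when 1 library was left out, either Ctrl replicate 1 or Z replicate 1. The transcript 4833438C02Rik overlaps this peak, so its accessibility cannot be assigned to Nfkb2 alone. Of the other 6 peaks, peak 5 (chr19:46314887-46315774), over the neighbouring gene Psd, was called higher with P, PL and LH only, each lost when 1 library was left out.

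Rel encodes c-Rel, the subunit most tied to lymphoid and myeloid cells. Its start peak (chr11:23769549-23772072) was already open, at 90.6 and 85.6 CPM in Ctrl, and rose little, to 117 and 122 with ZcG at the most (log2 0.44 ± 0.09 SE, edgeR, adjusted p = 3.06e-05). It was higher in 9 of 17 stimulations, of which 5 were lost without Ctrl replicate 2. Rel peak 1 (chr11:23733989-23735510), past the far end of the gene from the start and chosen after its values were seen, was higher in all 17, from 5.35 and 7.72 CPM in Ctrl to 12.2 and 17.3 with PcG (log2 1.16 ± 0.20 SE, edgeR, adjusted p = 3.91e-07), and 7 of those calls were lost without Ctrl replicate 1. Rel peak 5 (chr11:23754004-23754883), the best covered after the start, stood at 10.7 and 10.7 CPM in Ctrl and 19.0 and 12.9 with ZS, and its 8 calls were each lost when 1 library was left out. The intronic or exonic position of peaks inside the gene body was not analysed here. Rel peak 3 (chr11:23745881-23746524) inside the gene stood at 0.874 and 0.868 CPM in Ctrl and 2.06 and 1.88 with P, and at 3.23 and 4.34 with PScG (log2 2.12 ± 0.48 SE, edgeR, adjusted p = 1.26e-04). With single ligands it was not called, the smallest adjusted p by edgeR being 0.0885 with P, and it was called in 8 combinations, 6 of which were lost when 1 library was left out. The difference between single ligands and combinations was not tested as such.

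Rela encodes p65, the main activating subunit. Its start peak (chr19:5636414-5638275) stood at 13.4 and 19.9 CPM in Ctrl, 22.6 and 20.5 with P, 26.9 and 28.7 with cG and 34.9 and 35.4 with PScG. PScG was the highest group, with both libraries above every other library of this peak (log2 1.07 ± 0.14 SE, edgeR, adjusted p = 1.45e-11). The peak was higher in 13 of 17 stimulations and not with P, Z, PH and LH. Its calls with L, H, S, PL, ZS and ZcG were lost without Ctrl replicate 1. Rela peak 3, past the gene, was called with PScG only (0.49), a call lost when 1 library was left out.

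Relb encodes RelB, the partner of p52 in the noncanonical pathway. Its gene-end start peak (chr7:19628002-19630971) stood at 82.5 and 85.2 CPM in Ctrl and 118 and 102 with cG (log2 0.39 ± 0.09 SE, edgeR, adjusted p = 2.25e-04). It was called higher with S, cG, ScG, ZS, ZcG and ZScG, and of these calls S, ZS and ZcG were lost when 1 library was left out. It was not called with PS, PcG and PScG, which also hold S or cG. No pair or triplet interaction was called at this peak, and PS and PcG were not tested against S and cG. Peak 2 in the flank (chr7:19603979-19604779) overlaps Clasrp and was called in 0 of 17 stimulations, with log2 fold changes from -0.18 to 0.34. Peak 1 (chr7:19600877-19601275), also over Clasrp, stood at 0.655 and 0.772 CPM in Ctrl, 3.05 and 1.52 with P and 2.29 and 3.36 with H, and none of its calls held without every library. Of the 8 peaks of Relb, 4 were called in no stimulation.

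Nfkbia encodes IkappaB-alpha, the inhibitor resynthesised after each round of activation. Its start peak (chr12:55490029-55493524), which also covers Gm36634, was open in Ctrl at 92.8 and 92.5 CPM. With P it stood at 94.5 and 86.6 CPM and with L at 83.9 and 98.3, with Ctrl between the 2 libraries in both. With S it stood at 123 and 104 CPM and with cG at 112 and 122 (log2 0.34 ± 0.09 SE, edgeR, adjusted p = 0.00191). It was called with S, cG, PScG and ZScG, and each of these calls was lost when 1 library was left out. Under total counts its values with P, L and PL turned from -0.03, -0.02 and -0.04 to 0.29, 0.40 and 0.27. The peak at the other gene end, peak 3 (chr12:55485645-55489550), was higher with S, cG, PL, PH, PS, PcG and PScG, at 56.5 and 58.9 CPM with PScG against 44.9 and 39.8 in Ctrl (log2 0.45 ± 0.10 SE, edgeR, adjusted p = 2.41e-04). The calls other than S and PScG were lost when 1 library was left out. Nfkbia peak 2 (chr12:55483838-55485290) in the flank past that end stood at 1.53 and 1.83 CPM in Ctrl and 7.49 and 5.79 with ZScG (log2 1.98 ± 0.35 SE, edgeR, adjusted p = 1.66e-06), and was higher in 12 of 17 stimulations, of which L, PH and cG were lost without Ctrl replicate 1.

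Nfkbie encodes IkappaB-epsilon, a slower acting inhibitor. Its start peak (chr17:45554339-45558859) rose in all 17 stimulations. It stood at 35.6 and 37.1 CPM in Ctrl, 73.0 and 68.6 with S and 72.3 and 68.9 with cG. With H it stood at 59.8 and 60.8 CPM, with L at 56.4 and 55.0 and with P at 50.2 and 47.1. All 34 stimulated libraries lay above both Ctrl libraries. The log2 fold change was 0.96 ± 0.10 (SE; edgeR, adjusted p = 1.85e-15) with S and 0.42 ± 0.10 (SE; edgeR, adjusted p = 0.00103) with P, and it was lowest with PH at 0.32. The PH and Z calls were lost without Ctrl replicate 1. Peak 10 (chr17:45569797-45570363), in the flank and over Hsp90ab1, stood at 1.42 and 1.06 CPM in Ctrl and 5.41 and 7.38 with cG (log2 2.37 ± 0.38 SE, edgeR, adjusted p = 1.32e-07), and was higher in 14 stimulations, 6 of which were lost when 1 library was left out. Peak 11 (chr17:45572244-45574856), also over Hsp90ab1, was called with cG (0.30) and ZS (0.34) only, both lost without Ctrl replicate 2. Since 10 of the 11 Nfkbie peaks lie outside its gene body, they cannot be assigned to Nfkbie by position alone.

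Tnfaip3 encodes A20, a ubiquitin-editing enzyme that damps signalling above the IKK complex. Of its 9 peaks, 8 were higher at least once and 0 were lower. Its 2 annotated starts lie in separate peaks. The peak at the inner start, peak 6 (chr10:19011097-19013168), stood at 4.37 and 4.15 CPM in Ctrl, 20.7 and 18.8 with P and 9.19 and 10.8 with Z. The 34 stimulated libraries all lay above Ctrl, and the 17 calls held without any 1 library. Its log2 fold change ran from 1.24 ± 0.22 (SE; edgeR, adjusted p = 9.22e-06) with Z to 2.26 ± 0.19 (SE; edgeR, adjusted p = 1.36e-21) with PL. The peak at the outer start, peak 8 (chr10:19013918-19016023), stood at 26.0 and 25.1 CPM in Ctrl and 40.3 and 40.8 with PScG (log2 0.67 ± 0.12 SE, edgeR, adjusted p = 3.04e-06), and was called in 12 stimulations, of which 6 were lost when 1 library was left out. The difference between the 2 start peaks was not tested. Peak 5 (chr10:19006074-19010285) inside the gene was highest with PcG, at 55.4 and 63.6 CPM against 37.0 and 49.0 in Ctrl, and its 6 calls were each lost without Ctrl replicate 1.

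Tnfaip3 peak 3 (chr10:18998085-19000894), in the flank 15.9 kb from the outer start, was also higher in all 17 stimulations. This peak was named for its large mean log2 fold change, so its values are selected. It stood at 3.39 and 2.99 CPM in Ctrl, 21.4 and 14.9 with P, 17.8 and 19.9 with S and 7.09 and 6.19 with Z. PLH was the highest group at 32.4 and 32.3 CPM, 10.1 times the Ctrl mean. The log2 fold change was 1.05 ± 0.25 (SE; edgeR, adjusted p = 0.00266) with Z and 3.34 ± 0.20 (SE; edgeR, adjusted p = 3.82e-36) with PLH. In ascending order of mean the groups were Ctrl, Z, H, ZcG, L, cG, ZS, ScG, LH, P, S, ZScG, PL, PS, PcG, PH, PScG and PLH, and neighbours overlapped in 10 of 17 cases. The Z call alone was lost, without Ctrl replicate 2 or Z replicate 1. The plot of shared peaks gives each library.

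**Figure D3:**
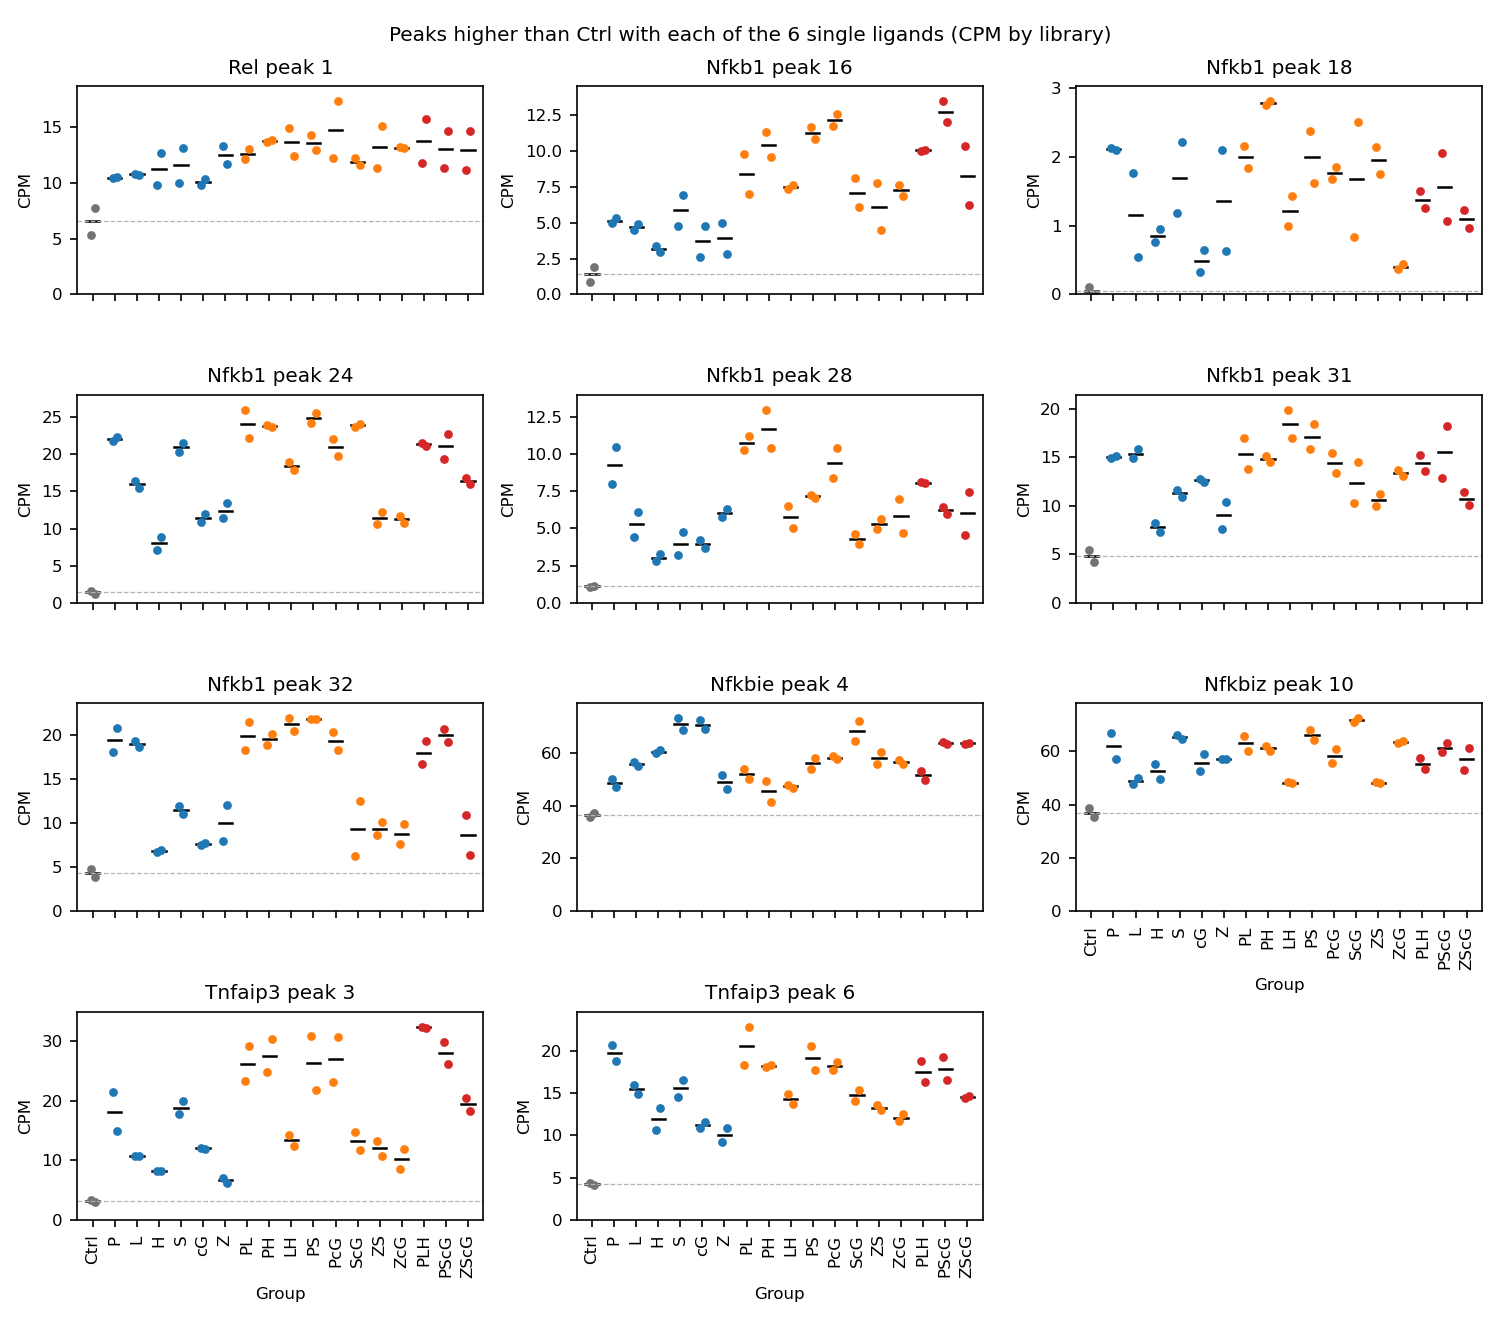
TMM-scaled CPM of each library (points) in the 18 groups at the 11 peaks called higher with all 6 single ligands, with short lines at the mean of the 2 libraries and a dashed line at the Ctrl mean. Ctrl lies below every stimulated library in these peaks, which for the single ligands follows largely from choosing the peaks by these same values. At Nfkb1 peak 24 the stimulated libraries stand at 7.18 to 26.0 CPM against 1.53 and 1.25.

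Nfkbiz encodes IkappaB-zeta, a nuclear family member that helps switch on secondary response genes. The peak at its gene end (chr16:55838262-55839615), used as its start peak, stood at 38.7 and 35.4 CPM in Ctrl, 67.0 and 57.3 with P, 57.2 and 57.1 with Z and 71.0 and 72.3 with ScG. All 34 stimulated libraries lay above Ctrl, and all 17 stimulations were called, ScG with a log2 fold change of 0.95 ± 0.10 (SE; edgeR, adjusted p = 9.17e-15). The L, LH and ZS calls were lost without Ctrl replicate 2. Inside the gene, peak 5 (chr16:55820312-55822829) went both ways, from 61.5 and 55.6 CPM in Ctrl to 47.1 and 40.8 with PL and 74.8 and 80.4 with Z. It was called lower with L, PL, LH, PcG and PLH and higher with Z and ZcG, each call was lost when 1 library was left out, and with total counts its value turned to 0.10 with L, 0.03 with LH and 0.05 with PcG. Peak 3 (chr16:55809300-55810447), past the other gene end, stood at 0.765 and 1.64 CPM in Ctrl and 6.48 and 4.67 with S (log2 2.18 ± 0.39 SE, edgeR, adjusted p = 1.82e-06), and 10 of its 13 calls were lost without Ctrl replicate 1.

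Bcl3 encodes a nuclear IkappaB protein that binds p50 and p52 homodimers. Its start peak (chr7:19822239-19823135) stood at 7.21 and 9.84 CPM in Ctrl and 13.7 and 13.6 with PScG (log2 0.67 ± 0.20 SE, edgeR, adjusted p = 0.00394). It was called with S, PScG and ZScG, and each call was lost without Ctrl replicate 1. Just upstream, peak 8 (chr7:19823393-19824654), chosen after its values were seen, was lower in 13 of 17 stimulations, at 13.9 and 12.9 CPM with PLH against 25.1 and 27.3 in Ctrl (log2 -0.97 ± 0.15 SE, edgeR, adjusted p = 1.26e-08), and 6 of its calls were lost when 1 library was left out. Peak 10 over Gm34891 (chr7:19830584-19831546) was lower in 11, at 22.0 and 17.5 CPM with PLH against 34.1 and 29.8, and 8 of these calls were lost without Ctrl replicate 1. With total counts its values turned to 0.04 with L and 0.06 with PcG. Peak 1 (chr7:19800208-19801178), past the other end of the gene, stood at 2.08 and 1.83 CPM in Ctrl and 6.02 and 6.17 with ZS (log2 1.64 ± 0.37 SE, edgeR, adjusted p = 1.77e-04), the 1 of its 5 calls that held without any 1 library.

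**Figure D4:**
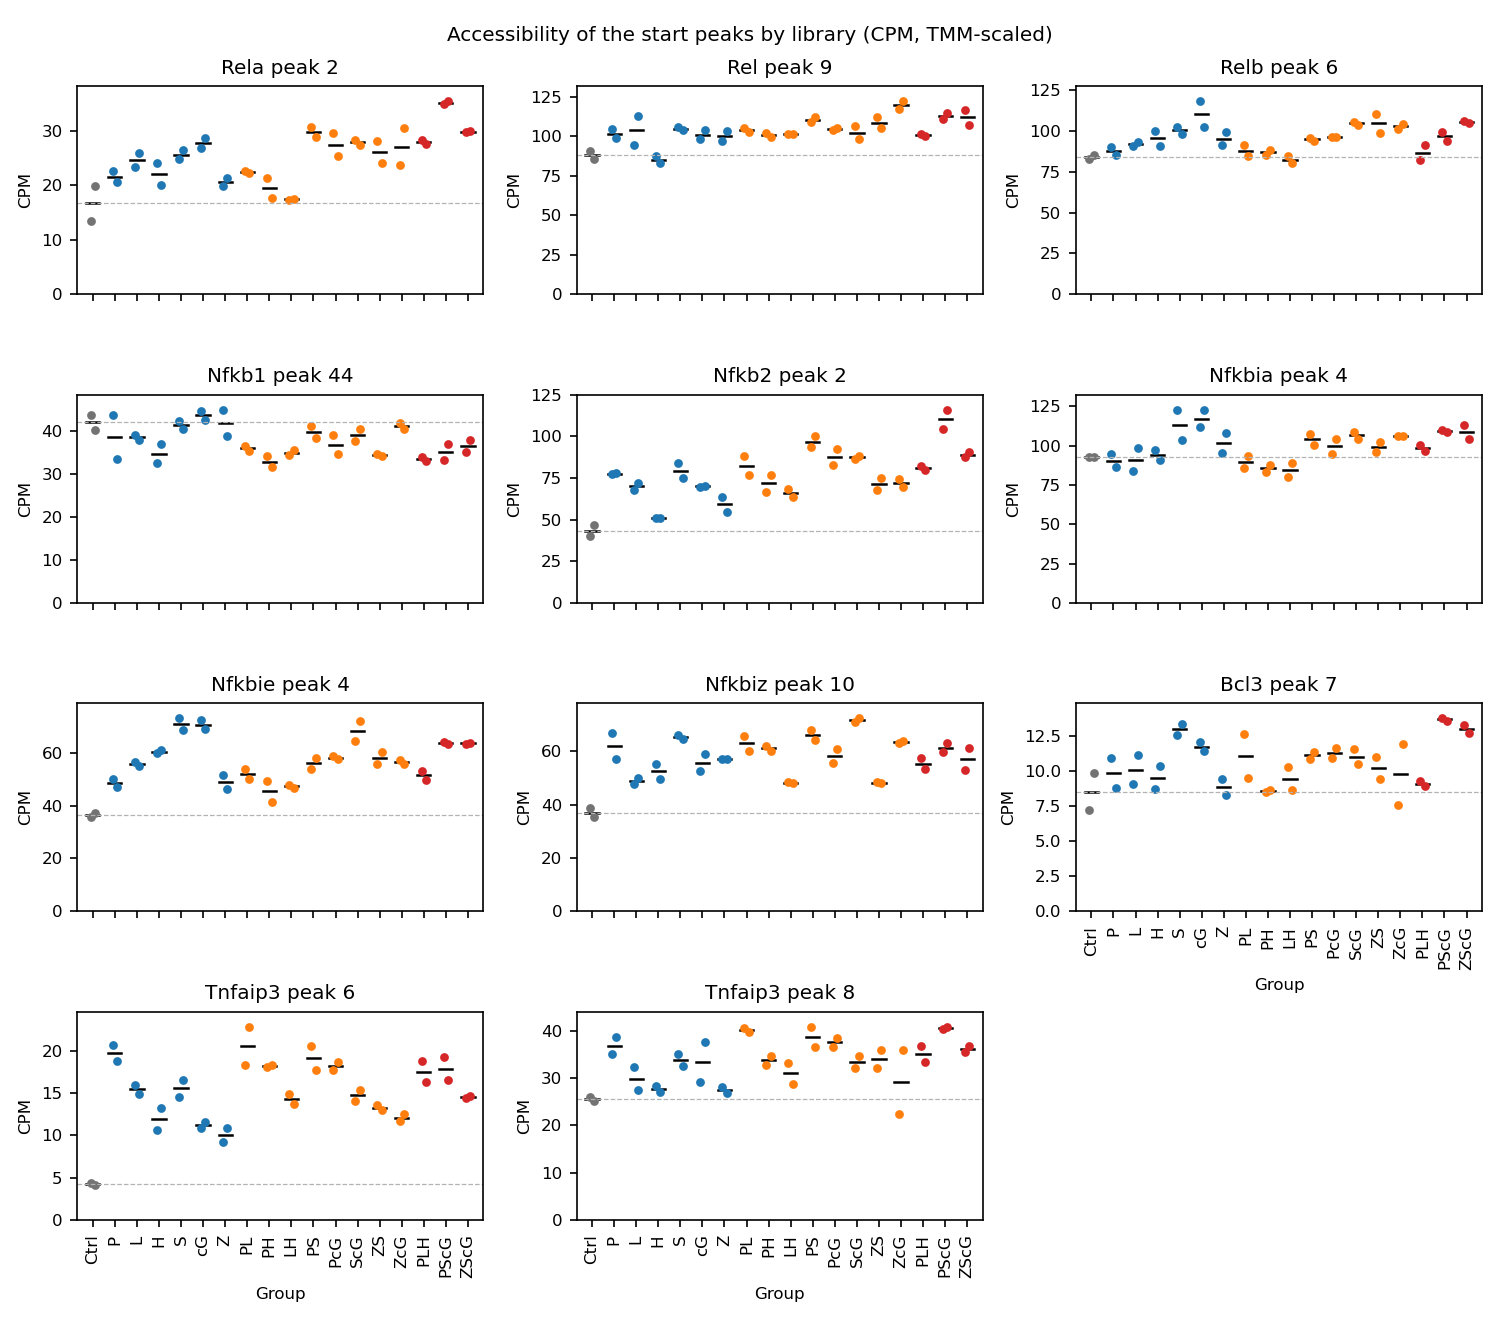
TMM-scaled CPM of each library (points) in the 18 groups at the 11 start peaks, with short lines at the mean of the 2 libraries and a dashed line at the Ctrl mean. Stimulated libraries clear both Ctrl libraries at Nfkb2, Nfkbie, Nfkbiz and the inner Tnfaip3 start, and straddle Ctrl at Nfkbia and Nfkb1.

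Setting single ligands against each other leaves Ctrl out. H gave lower values than P at 20 member peaks and higher at 2 (background 12.1%), and lower than L at 12 and higher at 1 (3.71%). S stood above H at 19 peaks and below at 3 (background 9.06%), and cG above H at 11 and below at 2 (7.36%). S and P differed at 13 peaks in each direction (background 24.5%), and cG was below P at 20 and above at 7 (23.8%). L was below P at 10 and above at 2 (background 11.1%), S above L at 12 and below at 5 (9.84%), and cG above L at 6 and below at 7 (7.23%). Between cG and S only 4 peaks were called, all lower with cG (background 0.949%), with 1 higher at an unadjusted p under 0.05 by edgeR and 0 called higher by DESeq2, which gave 33 of the 123 no adjusted p. For L, S and cG against P the share of members called was below the background.

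These counts were smaller with fewer libraries. Without L replicate 1 or P replicate 1, L against P had 6. Without H replicate 1, H against P had 13 and H against L 6, and without H replicate 2 the latter had 7. S against P had 14 without S replicate 1. S against L had 8 without L replicate 1 and 9 without S replicate 1. S against H had 11 without H replicate 1, 13 without H replicate 2 and 12 without S replicate 1. For cG against L it was 6 without cG replicate 1, 8 without cG replicate 2 and 4 without L replicate 1. For cG against H it was 8 without cG replicate 1 or H replicate 1, 4 without cG replicate 2 and 6 without H replicate 2. For cG against S it was 2 without either cG library and 1 without S replicate 2.

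Some single differences held without any 1 library, and whether genes differ in this was not tested. The Nfkbie start was more open with S than with P, by 0.54 ± 0.10 (SE; edgeR, adjusted p = 2.00e-06), and with cG than with P, by 0.54 ± 0.10 (SE; edgeR, adjusted p = 2.80e-06). In Nfkb1, cG stood below P at peak 24 at a log2 difference of -0.95 ± 0.15 (SE; edgeR, adjusted p = 6.70e-08) and at peak 32 of -1.34 ± 0.18 (SE; edgeR, adjusted p = 1.53e-10). Other Nfkb1 body peaks, 26, 30 and 35, were higher with S than with P, but not all of these calls held. At peak 26 all 3 calls between single ligands were lost when 1 library was left out, and peaks 30 and 35 each kept 1 of 3. H stood below P at Nfkb1 peak 24 at a log2 difference of -1.47 ± 0.16 (SE; edgeR, adjusted p = 1.12e-14) and at the Nfkb2 start of -0.61 ± 0.10 (SE; edgeR, adjusted p = 1.02e-07). Rel peak 7, inside the gene and chosen after its values were seen, was open with P at 3.81 and 3.25 CPM and near the Ctrl level of 0.874 and 1.35 with S (0.654 and 1.11) and cG (1.03 and 0.860), a difference of S from P of -1.98 ± 0.43 (SE; edgeR, adjusted p = 9.91e-05).

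The combinations were then set against the sum of their parts on the log2 scale. A pair interaction below 0 means that the log2 rise with the pair was smaller than the sum of the rises with its 2 ligands. The count was highest with ScG, at 27 member peaks (background 14.4%), and lowest with PH, at 5 (1.55%). In the ScG sum, ScG and Ctrl, with mean mitochondrial shares of 59.35% and 60.98%, enter with a plus sign. S and cG, at 47.94% and 46.13%, enter with a minus sign. The part of this share in the ScG values cannot be told apart from the interaction. ZS had 16 (background 3.43%), PS 15 (4.59%) and PL 14 (6.75%). PcG had 12 (background 3.27%), LH 11 (4.88%) and ZcG 10 (2.49%). Of these 110, all but 1 were below 0, the exception being Nfkb1 peak 19 with ScG, named after its value was seen (log2 0.68 ± 0.20 SE, edgeR, adjusted p = 0.0112), lost when 1 library was left out. Above 0, each of the other 7 pairs had 0 called by edgeR and 0 to 6 at an unadjusted p under 0.05, and DESeq2 called 1, with PcG. Of all tested peaks, 0.471% (PH) to 2.57% (PL) were called above 0 in these 7 pairs. At the lower of these shares, 0 calls among 123 peaks is near the background. DESeq2 gave no adjusted p to 33 (PL) to 55 (PH) of the 123 peaks in these pairs, which it could not call. In all, 34 member peaks (27.6%) had a called value below 0, where 12.3% of tested peaks did, and 18 of the 34 kept one without any 1 library. A called value above 0 in any of the 8 pairs occurred at 0.813% of member peaks and 9.84% of all tested peaks. For LH the count was 6 without Ctrl replicate 1, 5 without Ctrl replicate 2 and 7 without H replicate 1 or L replicate 2, for PH it was 3 without H replicate 1, and for ZcG it was 5 without either Ctrl library or Z replicate 2 and 6 without ZcG replicate 1.

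Peaks that every ligand opened were among those called. All 8 pair values of a peak use the same Ctrl libraries, and single-ligand groups recur among them. A low Ctrl value therefore enters all 8 with the same sign, and calls in several pairs are not independent. Nfkb1 peak 24 was called in all 8 pairs, from -4.04 ± 0.30 (SE; edgeR, adjusted p = 2.05e-25) with ZS to -2.31 with LH. P alone gave 21.8 and 22.4 CPM, S alone 20.3 and 21.6 and PS together 24.2 and 25.6. The inner Tnfaip3 start was called in all 8 pairs at -1.13 to -1.92 and the Nfkbie start in all 8 at -0.52 to -1.01. Tnfaip3 peak 3 was called in 7, of which 2 were lost when 1 library was left out, as was 1 of the 8 at the Nfkbie start. The ZcG value of the inner Tnfaip3 start was lost without Ctrl replicate 2 or Z replicate 2. The groups that enter these sums differ in mitochondrial share, whose part was not tested.

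Triplet interactions, the part of a triplet's value that its single ligands and pairs do not give by addition, had the opposite sign. They were called at 5 member peaks for PLH (background 0.783%), 7 for PScG (2%) and 10 for ZScG (1.89%), all above 0. None of 369 tests was called below 0 by edgeR, and 6 were at an unadjusted p under 0.05. Of all tested peaks, 0.273% (PLH), 0.976% (PScG) and 0.917% (ZScG) were called below 0, and 0.511%, 1.03% and 0.974% above. At shares this low, 0 calls below 0 among 123 peaks is near the background. DESeq2 also called 0, but it gave no adjusted p to 70 (PLH), 60 (PScG) and 55 (ZScG) of the 123 peaks, which it could not call. Nfkb1 peak 24 had 2.02 ± 0.37 (SE; edgeR, adjusted p = 3.01e-04) with PLH and 3.53 ± 0.39 (SE; edgeR, adjusted p = 3.21e-12) with ZScG. The Nfkbie start had 1.05 with PLH, 0.94 with PScG and 0.93 with ZScG. Of 13 peaks called at least once, 5 kept a call without any 1 library. The ZScG count was 6 without cG replicate 2, S replicate 2 or ScG replicate 1 and 5 without Ctrl replicate 1 or Z replicate 2, and the 3 triplets together had 14 calls in place of 22 without Ctrl replicate 1. Triplet and pair interactions share the same libraries with opposite signs, so a pair value below 0 enters the triplet value with its sign turned.

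**Figure D5:**
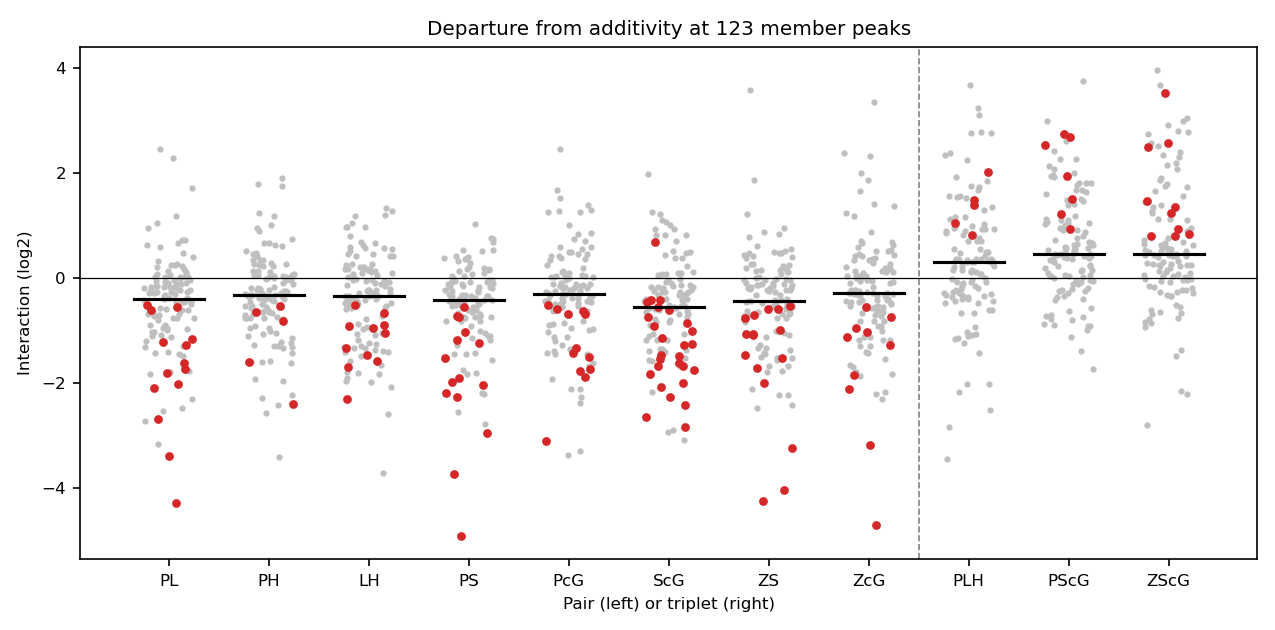
Fitted interaction (log2 scale, y axis) of member peaks for the 8 pairs (left of the dashed line) and 3 triplets (right), 1 point per peak, red where the adjusted p was under 0.05, with short black lines at the median of the 123 peaks. Called values lie below 0 for pairs, except 1 with ScG, and above 0 for triplets, and values at Nfkb1 peak 18 rest on 1 Ctrl count.

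Adding 1 more ligand to a pair changed few of the peaks. PLH exceeded LH at 3 peaks (background 0.546%), among them Tnfaip3 peak 3 at 32.4 and 32.3 CPM with PLH against 14.2 and 12.4 with LH (log2 1.27 ± 0.15 SE, edgeR, adjusted p = 7.84e-10). PLH exceeded PH at the Rela start alone (0.52, background 0.248%), a call lost without any 1 of the 4 libraries. PScG differed from ScG at 11 peaks (background 4.53%; 4 without ScG replicate 1), with Tnfaip3 peak 3 higher by 1.07 ± 0.16 (SE; edgeR, adjusted p = 2.34e-07), a contrast that crosses the division in mitochondrial share. ZScG exceeded ZcG at 4 (background 2.79%; 2 without ZcG replicate 1 or ZScG replicate 1). PLH against PL (background 0.000837%), PScG against PS (0.602%) and PcG (0.412%), and ZScG against ZS (0.0586%) and ScG (0.772%) had 0 calls by edgeR. At an unadjusted p under 0.05 these 5 had 4, 11, 7, 15 and 6 peaks higher and 2, 3, 6, 1 and 5 lower, and DESeq2 called 0, 0, 1, 0 and 2. Of the 123 peaks, DESeq2 gave 0, 52, 57, 65 and 76 no adjusted p in these contrasts and could not call them.

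Each gene's summed accessibility was also set beside that of 16939 genes over the 18 group means, as a description, and the points share their libraries, depth and mitochondrial share. Tnfaip3 was most like Il10 (Pearson r = 0.968) and Traf1 (0.947). Nfkb1 was most like Gpd2 (0.964) and Vash1 (0.958), Rela like Src (0.963) and Csf2rb2 (0.958), and Nfkb2 like Denr (0.947) and Ifitm1 (0.943). Relb was most like Lgals1 (0.934), Nfkbie like Relb (0.913), Rel like Hrc (0.895), Nfkbia like Tpx2 (0.882), Bcl3 like Bclaf1 (0.848) and Nfkbiz like Igfbp7 (0.847). Among the members, Nfkb2 and Tnfaip3 had r = 0.883, Rela and Nfkb2 0.841, and Relb and Nfkb1 -0.431.

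The rest of the pathway was taken as 28 genes in 4 roles, the IKK complex, the noncanonical arm, receptor adaptors and other inhibitors, with 295 tested peaks. P raised 68 (23.1%) and lowered 16 (5.42%) of them, where 11.1% and 9.45% of all tested peaks were. L raised 64 (21.7%) and lowered 16 (5.42%), against 11.2% and 11.1%. S raised 73 (24.7%) and lowered 32 (10.8%), against 14.1% and 13.8%, and cG raised 63 (21.4%) and lowered 25 (8.47%), against 11.6% in each direction. H raised 29 (9.83%) and lowered 10 (3.39%), against 5.21% and 5.46%, and Z raised 27 (9.15%) and lowered 4 (1.36%), against 4.16% and 1.75%. With PScG 91 were higher (30.8%) and 45 lower (15.3%), against 19% and 18.1%. By role, PScG raised 5 of 24 peaks of the IKK complex (20.8%) and lowered 3 (12.5%), and raised and lowered 21 of 95 for adaptors (22.1% each), shares near those of all peaks. It raised 23 of 52 for the noncanonical arm (44.2%) and lowered 5 (9.62%), and raised 42 of 124 for other inhibitors (33.9%) and lowered 16 (12.9%). These shares differed between triplets. For the noncanonical arm, 28.8% were higher and 7.69% lower with PLH, and 21.2% and 13.5% with ZScG. For the IKK complex they were 20.8% and 12.5% with PLH, and 20.8% and 33.3% with ZScG. Of all tested peaks, 14.9% were higher and 14.7% lower with PLH, and 16.2% and 16.1% with ZScG. A peak higher in all 17 stimulations, as 1.03% of all tested peaks were, occurred in Irak2 (of 30 peaks), Tnip1 (25), N4bp1 (21), Traf1 (15), Traf3 (12), Ikbkb (10), Traf2 (7) and Chuk (6). Ripk1 (7 peaks), Myd88 (5), Traf6 (3) and Tab1 (2) had no peak higher in any, where 35% of all tested peaks were higher at least once. With so few peaks per gene, whether these genes differ from the rest was not tested. The peaks of Irak2 and Tnip1 given next were chosen after their values were seen. A peak of Irak2, a kinase of the adaptor complex, stood at 0.656 and 0.675 CPM in Ctrl and 6.94 and 6.52 with S. A peak of Tnip1, which encodes a partner of A20, stood at 4.04 and 5.21 CPM in Ctrl and 15.4 and 17.6 with P.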

How the data were processed

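ATAC-seq libraries were aligned and peaks called by the submitters, whose processing notes name Bowtie2 2.2.9, MACS2 1.4, bedtools, featureCounts and mm10. The deposited table holds raw read counts per peak for 36 libraries, which the authors made over 1 common set of 119751 peaks. The mitochondrial peak was left out, counts were scaled by TMM, and peaks were kept by filterByExpr with a minimum count of 10, which left 119464. All libraries were fitted together with edgeR 4.0.16 (R 4.3.3), by the robust quasi-likelihood test with trended dispersion (common value 0.02) and 18 residual degrees of freedom, in 47 contrasts. The Benjamini-Hochberg adjustment ran over all tested peaks of a contrast. CPM are TMM-scaled. DESeq2 1.42.0 was an alternative, and the fit was tested on simulated data. Sequences came from RefSeq. Intervals are exact 95% intervals of counting error only.

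The members and lists were chosen with earlier results of these data known. Peaks were named, per gene, as the start peak, the other peak with the highest mean CPM, and the peak with the largest absolute mean log2 fold change over the 17 stimulations among those averaging 1 CPM or more. The last of these selects on measured values. It named Rel peak 3, Relb peak 1, Nfkb1 peak 18 and Nfkbia peak 2. It also named Nfkbie peak 10, Nfkbiz peak 3, Bcl3 peak 1 and Tnfaip3 peak 3, and picked the Rela and Nfkb2 starts again. Peaks named outside this rule are said to be chosen after their values were seen. For Nfkb1, Relb and Nfkbiz no strand was found in the sources used here, so the peak at a gene end stands for the start. Other choices tried were scaling, filtering, a replicate block, a stricter threshold, the gene body alone and leaving out each library.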

Additional observations from a re-analysis of the deposited data

Results flagged for a closer look

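Each value here was picked out because a ligand's effect differed when another ligand was also given, as tested directly (edgeR's quasi-likelihood test, Benjamini-Hochberg adjusted, 2 libraries per group). By pair, ScG had 27 such member peaks, ZS 16, PS 15, PL 14, PcG 12, LH 11, ZcG 10 and PH 5. By triplet, ZScG had 10, PScG 7 and PLH 5.

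The inner start of Tnfaip3 (peak 6) had pair interactions of -1.80 with PL (edgeR, adjusted p = 5.62e-09), -1.60 with PH (2.75e-06) and -1.51 with PcG (5.25e-06). Tnfaip3 peak 3 in the flank had -2.04 with PS (edgeR, adjusted p = 3.2e-10) and -2.42 with ScG (4.66e-13), and triplet interactions of 1.95 with PScG (6.4e-05) and 2.48 with ZScG (4.03e-06). The Nfkbie start (peak 4) had -0.96 with LH (edgeR, adjusted p = 1.55e-07), -0.75 with ZcG (0.000279) and 1.05 with PLH (0.000605). The Nfkbiz start (peak 10) had -1.06 with ZS (edgeR, adjusted p = 6.94e-09). All are departures from addition on the log2 scale, and all use the same Ctrl libraries. The ScG pair values also follow the division in mitochondrial share, whose part in them cannot be told apart.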

How the results depend on the processing

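Over the 17 stimulations there were 706 calls at member peaks, 474 to 947 under the alternatives tried and 534 to 703 with 1 library left out. Of the 706 calls, 335 were lost on leaving out at least 1 of the single libraries. Scaling by total counts gave 250 pair interactions in place of 110, 74 triplet interactions in place of 22, and 39 calls of a triplet against its pairs in place of 19. Under it P had 61 calls, PH 67, LH 60, H against L 20 and PScG against ScG 29, and the interactions numbered 42 (PL), 15 (PH), 32 (LH), 28 (PS), 24 (PcG), 58 (ScG), 28 (ZcG), 14 (PLH), 30 (PScG) and 30 (ZScG). Without the 6 large peaks, total counts gave 17 (LH) and 11 (PScG) interactions. Of the members' calls against Ctrl, 97.5% were higher under total counts and 90.4% under TMM. For all tested peaks this share ran, by stimulation, from 46.7% to 91.7% under total counts and from 48.8% to 70.3% under TMM. Total counts thus also shifted peaks outside the members, and the larger member counts under it are not set against all peaks here. Abundance-dependent offsets gave 29 calls of triplets against pairs, 8 for cG against H, 12 PScG interactions, and 1, 7 and 1 calls for ZScG against ZS, ZcG and ScG. DESeq2 gave 11 PScG interactions, 1 call for PScG against PcG and 2 for ZScG against ScG. Fitting only the 2 groups compared gave 15 for H. With peaks of the gene body alone, which are fewer, P had 24 calls, H 15, cG 24, ScG 27, ZS 30, PLH 33, PScG 36 and ZScG 30. An adjusted p under 0.01 in edgeR left 27 for L, 13 for H, 33 for PL and 23 for LH. Except for the gene body and the stricter threshold, the cause was not tested.

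With each library left out in turn, counts ran from 21 to 32 for P, 27 to 31 for L, 14 to 15 for H and 10 to 13 for Z. Between ligands they ran from 6 to 9 (L against P), 13 to 19 (H against P), 14 to 20 (S against P), 6 to 9 (H against L), 8 to 13 (S against L), 4 to 10 (cG against L), 11 to 15 (S against H), 4 to 8 (cG against H) and 1 to 3 (cG against S). Interactions ran from 3 to 6 (PH), 5 to 10 (LH), 5 to 7 (ZcG), 5 to 10 (ZScG) and 14 to 23 (all triplets). Triplets against pairs ran from 12 to 19 in all, 4 to 10 for PScG against ScG, 2 to 4 for ZScG against ZcG, and 0 for PLH against PH.

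Of 493 values of named peaks, 260 kept their call, or stayed uncalled, under every alternative run. Called values that changed sign, and uncalled values that were called in the other direction, did so under total counts or abundance-dependent offsets. The sign of values uncalled in both fits was not compared. Under total counts Nfkbiz peak 5 turned to 0.10 (L), 0.03 (LH) and 0.05 (PcG), Nfkbie peak 11 to 0.29 (LH), Nfkb1 peak 44 to 0.30 (L), 0.03 (PLH), 0.32 (PS) and 0.34 (S), Relb peak 6 to 0.28 (LH), Bcl3 peak 10 to 0.04 (L) and 0.06 (PcG), and Nfkbia peak 4 to 0.40 (L), 0.29 (P) and 0.27 (PL). Under the offsets Relb peak 6 turned to 0.26 (LH), and Nfkbia peak 4 to 0.24 (L), 0.24 (P), 0.27 (PL) and 0.22 (PH). The cause was not tested. With the replicate number as a block there were again 706 calls against Ctrl, with 111 pair interactions. Deviations of same-numbered libraries correlated at -0.0475 to 0.0348 over 153 pairs of groups. Counting noise at weakly covered peaks lowers such values, so they cannot decide whether same-numbered libraries share a mouse, culture or batch. Of the member peaks, 19 had a mean count under 10, where small changes were not detectable at this depth.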
